A study of Mus musculus with 10 samples.

Results

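The lysosomal hydrolases and membrane proteins examined here are 43 genes: cathepsins, glycosidases and sulfatases, lipid enzymes with their cofactors and the cholesterol transporters, membrane proteins, proton pump subunits, and genes for enzyme sorting and regulation. They were found by symbol in the array's gene annotation, and 42 of the 43 had a transcript cluster among 19505 named genes; *Glb1* was not analysed here. The question was how their transcript levels in the mouse retina differed with bright light, with loss of CLN3 function and with minocycline, a tetracycline with immunomodulatory action. CLN3 is a lysosomal membrane protein whose loss causes juvenile neuronal ceroid lipofuscinosis (jNCL), a lysosomal storage disease that begins with vision loss.

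Total retinal RNA of 10 mice was hybridized to 1 array per animal, in 5 groups of 2 animals. The groups were unexposed wild-type mice (strain given as Balb/c), wild-type mice after ‘high light’ (15000 lux for 60 min by the protocol), unexposed *Cln3* dex7/8 mice, which carry a knock-in deletion allele of *Cln3*, and light-exposed *Cln3* dex7/8 mice injected with either NaCl or minocycline (45 mg/kg). The labels give no dose for the light-exposed CLN3-deficient mice; by the protocol the therapy study used ‘low light’, 10000 lux for 30 min. By the methods the animals of both genotypes in the light experiments carried the light-sensitive leucine variant of RPE65, the line was kept on a C57BL/6J background, the mice were male and female and 8 to 10 weeks old, and all were dark-adapted for 16 h before exposure. The sources used here do not state how long after light the retinas were taken. No label mentions an injection in the other 3 groups. Injection, light dose and genotype therefore cannot be told apart in a comparison of the genotypes after light. Nor can light and injection be told apart between light-exposed and unexposed CLN3-deficient mice, and this carries into any average over the genotypes.

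Lysosomes are acidic compartments in which hydrolases break down protein, glycans and lipids delivered by endocytosis, phagocytosis and autophagy. The V-ATPase pumps protons into them, heavily glycosylated membrane proteins line them, and mannose 6-phosphate receptors bring newly made hydrolases from the Golgi. In the retina, outer segment discs are shed into the lysosomes of the pigment epithelium, and microglia, the resident macrophages, carry a large lysosomal apparatus. TFEB is a transcription factor that binds an E-box, CACGTG, in the promoters of many lysosomal genes.

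The values are log2 expression as deposited, and the arrays had medians between 7.13 and 7.25. The *Cln3* transcript cluster read 10.25 to 10.72 on the 4 wild-type arrays and 9.14 to 10.18 on the 6 CLN3-deficient arrays; which exons its probes cover is not known, so this does not test the genotype labels. Rod markers, 10 of 12 measured, had a mean level of 16.4 to 17.6 on the 10 arrays, as a retinal sample should. Several arrays stood apart in transcripts of other cells. Markers of retinal pigment epithelium lay 2.70 above their 10-array mean on minocycline replicate 2 and 1.38 above it on ‘high light’ replicate 1. Lens markers lay 0.72 and 1.23 above their mean on the unexposed wild-type arrays and -0.79 and -0.865 from it on the ‘high light’ ones. In CLN3-deficient mice they lay -0.64 and -1.08 from it on the unexposed arrays and 0.93 and -0.40 on the NaCl-injected ones. On the minocycline arrays they lay 1.575 and -0.68 from it. Skeletal muscle transcripts lay 3.27 above theirs on unexposed CLN3-deficient replicate 1. The 3 Y-linked transcripts lay 3.43 to 4.20 above their mean on both unexposed wild-type, both NaCl-injected and minocycline replicate 1 arrays. On the others they lay -3.64 to -3.98 from it. By the Y-linked transcripts the unexposed wild-type and NaCl-injected mice were male, and the ‘high light’ wild-type and unexposed CLN3-deficient mice were female. Sex therefore cannot be told apart from light within either genotype, nor from genotype with or without light. It goes with light in opposite directions in the 2 genotypes. The light effect averaged over both genotypes is given beside the effect in each. In it the difference by sex cancels if it is equal in both genotypes, which these arrays cannot check. An injection given to the light-exposed CLN3-deficient mice alone would not cancel in it.

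In CLN3-deficient retinas 4 members were higher after light (*Ctsa*, *Ctsc*, *Lamp2* and *Mcoln1*) and 5 were lower (*Atp6v0d1*, *Atp6v1a*, *Galc*, *Gla* and *M6pr*) in NaCl-injected than in unexposed mice (limma, adjusted p under 0.05). That is 9.52% and 11.9% of the 42, against 6.57% and 11.0% of all genes. In wild-type retinas 2 members were higher after ‘high light’ (*Lamp2* and *Mcoln1*) and 7 were lower (*Atp6v0d1*, *Galc*, *Gla*, *M6pr*, *Npc1*, *Npc2* and *Smpd1*), or 4.76% and 16.7% against 10.5% and 15.6% of all genes. Averaged over both genotypes, 6 members were higher and 8 lower, 14.3% and 19.0% against 15.9% and 21.7%. The shares lower, and both shares in the average, thus lay near those of all genes. The share higher was above that of all genes in CLN3-deficient and below it in wild-type retinas, with 4 and 2 members called. In each comparison the members moved in both directions. Their median log2 fold change was 0.11 in CLN3-deficient and -0.08 in wild-type retinas, beside 0.01 and 0.03 for all genes. With median centring the wild-type median was 0.01, beside 0.12 for all genes. After quantile normalization the split in CLN3-deficient retinas was 6 higher and 3 lower, and that of the average 8 higher and 6 lower.

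The calls within a genotype rested on 2 arrays per group. In CLN3-deficient retinas, leaving out unexposed replicate 1 left 1 member higher and 0 lower, unexposed replicate 2 left 1 and 2, NaCl-injected replicate 1 left 2 and 0, and NaCl-injected replicate 2 left 1 and 2. *Lamp2* alone was called in all 4 of these fits. In wild-type retinas the counts were 1 and 7 without unexposed replicate 1, 5 and 3 without unexposed replicate 2, 1 and 2 without ‘high light’ replicate 1 and 2 and 5 without ‘high light’ replicate 2. Once the fit held a term for Y-linked transcripts being present, 0 members were called in either direction in CLN3-deficient retinas. In wild-type retinas 1 was higher and 0 lower. Only in the minocycline group did the 2 arrays differ in these transcripts, so the term rested on the difference between those arrays. It cannot separate Y-linked transcripts from anything else that differed between them. The averaged light effect again gave 6 and 8, but the term cancels in it, so its fold changes could not move. Of the 14 calls in the average, 10 were made again without unexposed wild-type replicate 1 (3 higher and 14 lower in that fit), without either unexposed CLN3-deficient array and without NaCl-injected replicate 1 (3 and 7 in each). It was 9 and 8 without unexposed wild-type replicate 2, 4 and 7 without ‘high light’ replicate 1 and 4 and 9 without ‘high light’ replicate 2. In the average *Ctsa*, *Lamp2*, *Mcoln1*, *Atp6v0d1*, *Atp6v1a*, *Galc*, *Gla*, *M6pr*, *Npc1* and *Smpd1* were called whichever array was left out.

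The genotypes shared 6 of their calls. *Lamp2* and *Mcoln1* were higher, and *Galc*, *Gla*, *Atp6v0d1* and *M6pr* lower, after light in both, which is 66.7% of the 9 members called in CLN3-deficient and 66.7% of the 9 called in wild-type retinas. Over all genes these shares were 60.7% and 41.0%. The members higher and lower in both were 4.76% and 9.52% of the 42, beside 2.85% and 7.84% of all genes. The light effect had the same sign in both genotypes for 32 of 42 members, and for 74.8% of all genes. In the test of the difference between the genotypes' light effects 0 members and 0.0% of all genes were called (limma); 2 members and 6.17% of all genes had a more positive effect in CLN3-deficient retinas at an unadjusted p under 0.05.

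**Figure D1:**
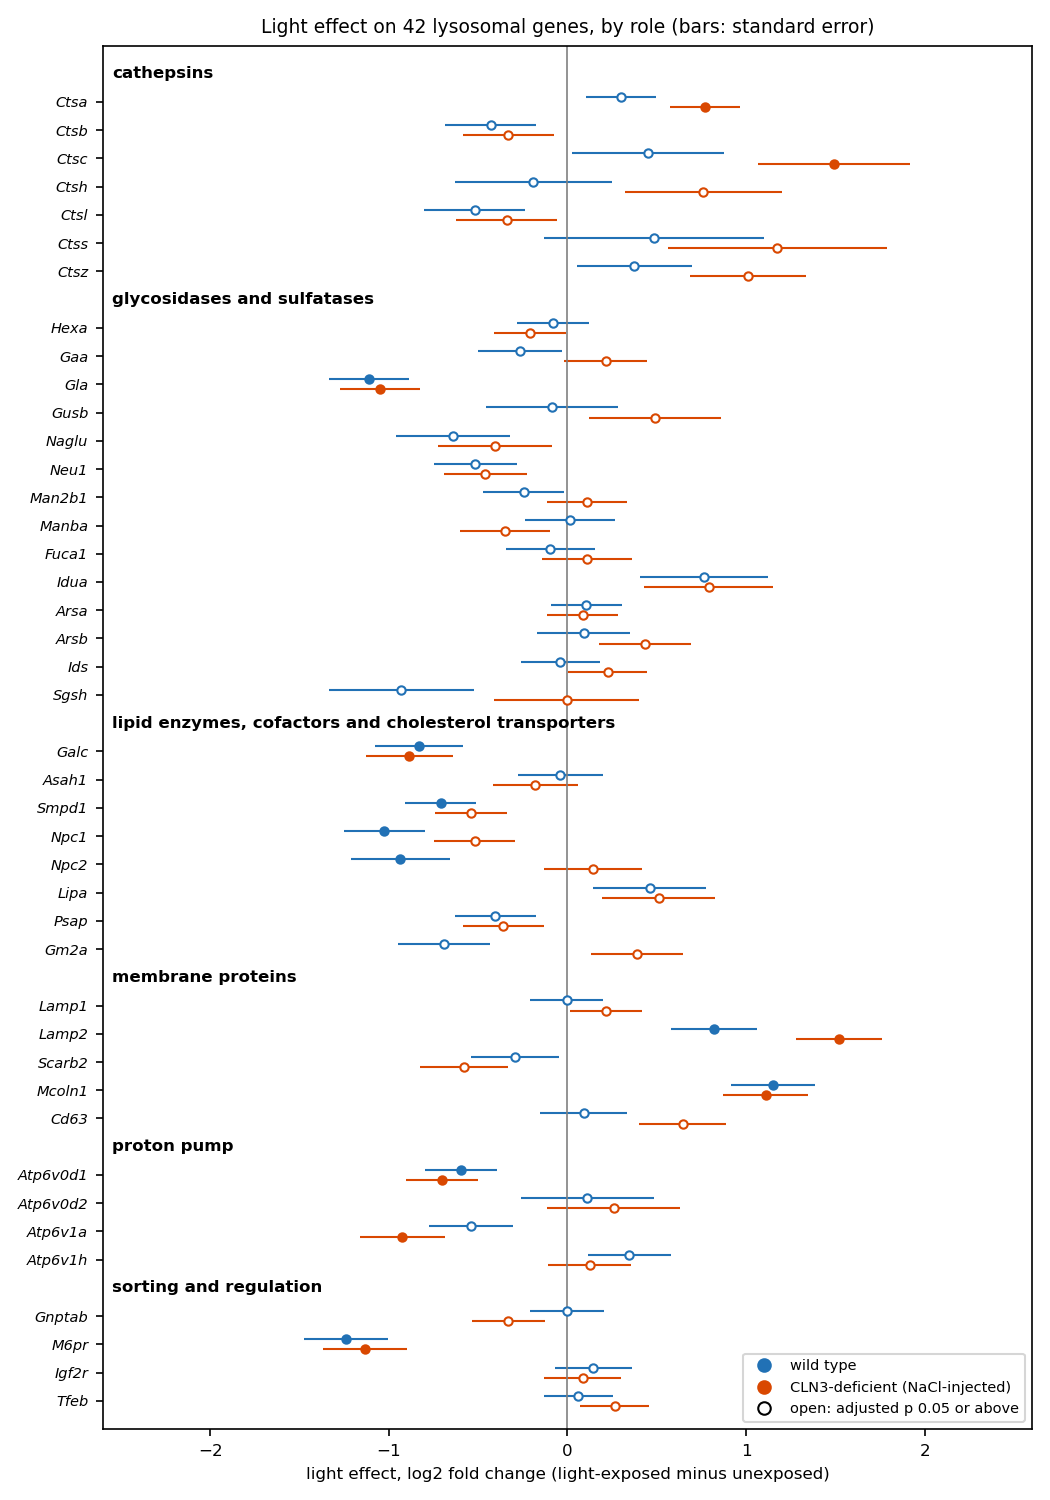
Light effect on each of the 42 measured genes, ordered by role. The x axis is the log2 fold change of light-exposed minus unexposed retinas (2 arrays per group), blue for wild-type and orange for NaCl-injected CLN3-deficient mice, bars show the standard error from limma, and filled points had an adjusted p under 0.05. *Lamp2* and *Mcoln1* lie right of 0 and *Galc*, *Gla*, *Atp6v0d1* and *M6pr* left of it with filled points in both genotypes.

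The promoters of the members were searched for the E-box that TFEB binds, since many lysosomal genes are known targets of this factor. The motif CACGTG reads the same on both strands. It was found in the window from 250 bases before to 50 after the transcript start for 12 of the 35 members with a RefSeq promoter (34.3%), and for 9.26% of the 15691 genes with a window. The longer TCACGTG, searched on both strands and overlapping the first, was found in 31.4% of members and 5.21% of genes. A gene with several annotated starts counted if any of its windows held the motif. The 250 bases before the start are given here for *Mcoln1* and *Ctsa*, which rose, for *Gla* and *Atp6v1a*, which fell, and for *Lamp2*, which rose and has no match, with each CACGTG in capitals (RefSeq, GRCm38.p6, 5′ to 3′ on the strand of the gene). They lie at chr8:3500269-3500518 (plus strand), chr2:164833523-164833772 (plus), chrX:134601006-134601255 (minus), chr16:44139260-44139509 (minus) and chrX:38456461-38456710 (minus).
Mcoln1: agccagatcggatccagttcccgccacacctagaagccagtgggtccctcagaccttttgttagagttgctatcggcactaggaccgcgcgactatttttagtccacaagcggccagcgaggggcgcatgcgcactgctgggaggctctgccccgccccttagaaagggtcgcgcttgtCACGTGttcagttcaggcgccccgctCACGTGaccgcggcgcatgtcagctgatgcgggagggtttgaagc
Ctsa: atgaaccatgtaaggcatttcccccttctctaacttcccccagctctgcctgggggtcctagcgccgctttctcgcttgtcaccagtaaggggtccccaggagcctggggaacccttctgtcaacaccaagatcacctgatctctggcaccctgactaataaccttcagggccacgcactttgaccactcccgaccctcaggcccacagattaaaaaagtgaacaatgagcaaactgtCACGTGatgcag
Gla: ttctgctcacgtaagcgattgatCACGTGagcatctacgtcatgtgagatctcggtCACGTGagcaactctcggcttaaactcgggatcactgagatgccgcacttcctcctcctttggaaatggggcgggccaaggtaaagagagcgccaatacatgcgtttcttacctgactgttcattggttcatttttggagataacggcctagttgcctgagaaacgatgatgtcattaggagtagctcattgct
Atp6v1a: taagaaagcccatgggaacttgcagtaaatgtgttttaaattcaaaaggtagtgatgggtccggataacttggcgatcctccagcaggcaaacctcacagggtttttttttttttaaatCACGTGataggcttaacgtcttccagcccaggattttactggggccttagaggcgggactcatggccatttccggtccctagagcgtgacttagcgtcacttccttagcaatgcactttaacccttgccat
Lamp2: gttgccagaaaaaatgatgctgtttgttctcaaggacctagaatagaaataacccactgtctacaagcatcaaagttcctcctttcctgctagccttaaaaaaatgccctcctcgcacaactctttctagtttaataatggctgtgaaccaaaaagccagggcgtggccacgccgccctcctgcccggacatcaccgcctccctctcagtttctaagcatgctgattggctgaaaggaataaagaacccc

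The matches began 71 and 45 bases before the start in *Mcoln1*, 227 and 194 in *Gla* and 131 in *Atp6v1a*. In *Ctsa* they began 12 bases before and 6 bases after the start used here, while the window of another annotated *Ctsa* start had no match. Members with and without the motif were found among both the rises and the falls. After light in CLN3-deficient retinas, 2 of the 12 members with the motif were higher and 3 lower (median log2 fold change 0.04), against 2 higher and 1 lower of the 23 without it (median 0.23). In wild-type retinas 1 was higher and 2 lower with the motif (median -0.39), and 1 was higher and 3 lower without it (median -0.04).

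The 7 cathepsins among the members are lysosomal proteases. After light in CLN3-deficient retinas 2 of the 7 rose and 0 fell, where 6.57% of all genes were higher. Their median log2 fold change was 0.77 (0.30 in wild-type retinas, with 0 called). Cathepsins of the other lists had lower means there after light and NaCl. *Ctsf* read 12.12 unexposed and 11.255 exposed, *Ctsk* 7.425 and 6.925, and *Ctso* 10.015 and 9.76. *Ctsd* was not analysed here. *Ctsa* encodes a serine carboxypeptidase that also stabilizes the sialidase *Neu1*. It read 12.46 and 12.70 in unexposed and 12.91 and 12.85 in ‘high light’ wild-type retinas, 12.54 and 12.38 in unexposed, 13.28 and 13.18 in NaCl-injected and 12.91 and 12.73 in minocycline-treated CLN3-deficient retinas. Both NaCl-injected retinas were above every other array. The rise in CLN3-deficient retinas was 0.77 ± 0.20 (SE, limma, adjusted p = 0.0208) and the average over genotypes was 0.54 ± 0.14 (adjusted p = 0.0108). The call in CLN3-deficient retinas was lost with the Y-linked term and without either unexposed or either NaCl-injected array.

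*Ctsc*, a dipeptidyl peptidase that activates serine proteases of immune cells, read 10.21 and 11.71 in unexposed and 11.78 and 11.04 in ‘high light’ wild-type retinas. Mice lacking CLN3 gave 10.61 and 10.58 without light, 12.30 and 11.87 with light and NaCl, and 11.43 and 10.77 with light and minocycline. The unexposed wild-type arrays lay 1.50 apart, so the wild-type groups overlapped, while the unexposed CLN3-deficient arrays were both below both light-exposed groups. The rise in CLN3-deficient retinas was 1.49 ± 0.43 (SE, limma, adjusted p = 0.0335), a 2.81-fold difference. This call too was lost with the Y-linked term and without either unexposed or either NaCl-injected array. *Ctsz*, a carboxypeptidase, read 9.53 and 10.59, then 10.46 and 10.41, in wild-type retinas. It read 9.80 and 9.93 in unexposed, 11.15 and 10.60 in NaCl-injected and 10.21 and 9.76 in minocycline-treated CLN3-deficient retinas. Its light effect there was 1.01 ± 0.32 (limma, adjusted p = 0.0516), and the average over genotypes, 0.69 ± 0.23, was called (adjusted p = 0.0332).

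*Ctss*, the protease that trims the invariant chain in antigen-presenting cells, varied most between the arrays of a group. It read 8.25 and 10.59 in unexposed and 9.69 and 10.12 in ‘high light’ wild-type retinas, and 9.65 and 9.66, 10.52 and 11.14, and 9.77 and 8.40 in the unexposed, NaCl-injected and minocycline-treated CLN3-deficient retinas. Its light effect of 1.18 ± 0.61 in CLN3-deficient retinas was not called (limma, adjusted p = 0.218). The aminopeptidase *Ctsh* had a similar spread, 8.77 and 10.32 in the unexposed wild-type pair, and a light effect of 0.76 ± 0.44 that was not called either (limma, adjusted p = 0.267). *Ctsb* and *Ctsl*, the broadly expressed cysteine proteases, had negative light effects in both genotypes, none of them called; for *Ctsl* they were -0.34 ± 0.28 and -0.52 ± 0.28 in CLN3-deficient and wild-type retinas (limma, adjusted p = 0.453 and 0.190).

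Transcripts of microglia and macrophages were compared with the cathepsins array by array. Of 12 markers, 6 were higher after light in CLN3-deficient and 2 in wild-type retinas, 8 in the average, and 0 were lower. Of all genes 6.57%, 10.5% and 15.9% were higher in these comparisons. The mean of the 12 markers relative to the 10-array mean was -1.21 and 0.48 on the unexposed and 0.36 and 0.20 on the ‘high light’ wild-type arrays. It was -0.88 and -0.94, 1.20 and 1.02, and 0.61 and -0.85 on the unexposed, NaCl-injected and minocycline arrays of CLN3-deficient mice. The same quantity for the 7 cathepsins ran from -0.59 to 0.59 on the unexposed wild-type arrays and was 0.51 and 0.41 on the NaCl-injected arrays and -0.10 and -0.56 on the minocycline arrays. All 12 markers were measured on each array, and their mean level was 6.06 to 8.47, where the lower quartile of all genes was 4.81 to 5.20. The part of these cells in the cathepsin values was not tested. In whole retina, fewer cells of a type and less RNA per cell cannot be told apart.

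**Figure D2:**
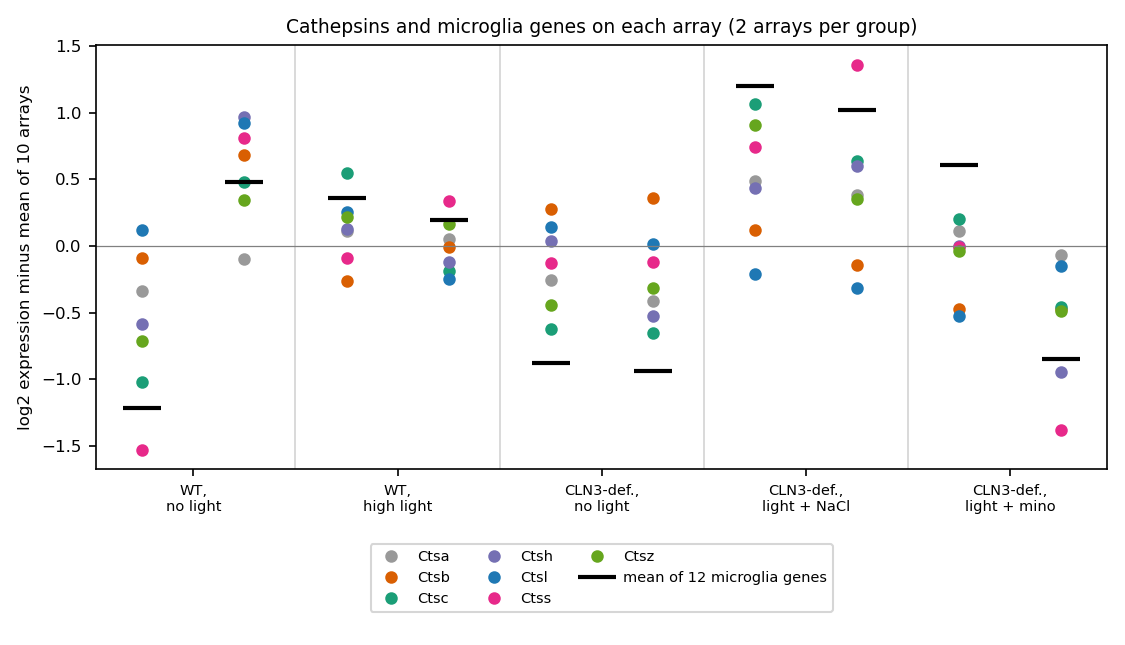
Cathepsin transcripts beside microglia markers on the 10 arrays. The y axis is log2 expression minus the mean of the 10 arrays, coloured points are the 7 cathepsins, and black bars are the mean of 12 microglia and macrophage markers. The bars stand at 1.20 and 1.02 on the NaCl-injected arrays, at 0.61 and -0.85 on the minocycline arrays and at -1.21 and 0.48 on the unexposed wild-type arrays, the points of *Ctsa*, *Ctsc*, *Ctsh*, *Ctss* and *Ctsz* lie above 0 on both NaCl-injected arrays, and those of *Ctsl* lie below 0 there.

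Of the glycosidases and sulfatases, which remove sugars and sulfate groups from glycolipids and glycosaminoglycans, 14 of 15 were measured, and 1 was called within a genotype. *Gla* encodes α-galactosidase A, which cleaves globotriaosylceramide. It read 10.44 and 10.48 in unexposed and 9.07 and 9.63 in ‘high light’ wild-type retinas, and 10.21 and 10.29, 9.10 and 9.30, and 9.44 and 9.22 in unexposed, NaCl-injected and minocycline-treated CLN3-deficient retinas. The 4 unexposed arrays were all above the 6 light-exposed arrays. The log2 fold change of *Gla* was -1.05 ± 0.23 in CLN3-deficient and -1.11 ± 0.23 in wild-type retinas (SE, limma, adjusted p = 0.00979 and 0.00571), that is 2.07-fold and 2.16-fold lower. Both calls were lost with the Y-linked term, and the CLN3-deficient one was not kept in every fit that left out a compared array.

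In the average over genotypes 2 more members of this group were called. The sialidase *Neu1* read 9.74 and 9.17, then 8.87 and 9.01, in unexposed and exposed wild-type retinas, and 9.33 and 9.17, 8.76 and 8.82, and 9.05 and 8.73 in the 3 CLN3-deficient groups, in the order unexposed, NaCl and minocycline. Its averaged log2 fold change was -0.49 ± 0.16 (limma, adjusted p = 0.0355), a call that was lost after quantile normalization and after median centring. The α-iduronidase *Idua*, which acts on dermatan and heparan sulfate, read 7.59 and 8.74, then 8.60 and 9.26, in wild-type retinas, and 7.97 and 8.27, 9.14 and 8.68, and 8.58 and 8.99 in the CLN3-deficient groups. It was higher by 0.78 ± 0.26 (limma, adjusted p = 0.0321). The wild-type pairs of *Idua* overlapped.

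The other 11 measured members of the group, *Hexa*, *Gaa*, *Gusb*, *Naglu*, *Man2b1*, *Manba*, *Fuca1*, *Arsa*, *Arsb*, *Ids* and *Sgsh*, were called in no comparison. *Sgsh*, the sulfamidase of heparan sulfate, read 9.70 on unexposed wild-type replicate 2 and 7.66 to 8.46 on the other 9 arrays. The same array was also the highest of the 10 for *Hexa* (10.66), *Gusb* (7.79), *Naglu* (8.99) and *Man2b1* (8.80). Across the 42 members its mean stood 0.35 above the 10-array mean, against -0.14 on the other unexposed wild-type array.

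Of the 8 lipid enzymes and their partners, 4 fell and 0 rose after light in wild-type retinas, with a median log2 fold change of -0.70. In CLN3-deficient retinas 1 fell (median -0.27). Of all genes 15.6% and 11.0% were lower in these comparisons. After quantile normalization the medians of the 8 were -0.39 and -0.11. *Galc*, the galactosylceramidase of myelin lipids, fell in both genotypes. It read 7.20 and 7.32, then 6.27 and 6.59, in unexposed and ‘high light’ wild-type retinas, and 7.78 and 7.25, 6.79 and 6.47, and 6.56 and 6.92 in the unexposed, NaCl-injected and minocycline-treated CLN3-deficient retinas. All 4 unexposed arrays exceeded all 6 light-exposed arrays. The falls were -0.83 ± 0.25 in wild-type and -0.89 ± 0.25 in CLN3-deficient retinas (log2, limma, adjusted p = 0.0292 and 0.0298). Both calls were lost with the Y-linked term, and neither was kept in every fit that left out a compared array.

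*Smpd1* encodes acid sphingomyelinase. It read 11.91 and 11.75 in unexposed and 11.09 and 11.15 in ‘high light’ wild-type retinas, and 12.03 and 11.86, 11.26 and 11.55, and 11.51 and 11.61 in the CLN3-deficient groups, unexposed, NaCl and minocycline. It was lower after light on every exposed array, called in wild-type retinas (-0.71 ± 0.20, limma, adjusted p = 0.0232) and not in CLN3-deficient ones (-0.54 ± 0.20, adjusted p = 0.0844), and its wild-type call was lost after quantile normalization, after median centring, with the Y-linked term and without 3 of the 4 arrays compared. *Npc1* and *Npc2* move cholesterol out of the lysosome. *Npc1* read 11.46 and 11.30, then 10.06 and 10.65, in wild-type retinas, and 11.36 and 11.52, 11.00 and 10.84, and 10.85 and 10.93 in the CLN3-deficient groups. The fall of *Npc1* in wild-type retinas was -1.03 ± 0.23 (limma, adjusted p = 0.00832), 2.04-fold, and its effect in CLN3-deficient retinas was -0.52 ± 0.23 (adjusted p = 0.141). The difference between these effects, 0.51 with a 95% interval of -0.20 to 1.21, was not called (limma, adjusted p = 0.601). The wild-type call of *Npc1* was lost with the Y-linked term and was not kept in every fit that left out a compared array.

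*Npc2* and *Gm2a*, both soluble lipid carriers, had fitted light effects of opposite sign in the genotypes. *Npc2* read 7.41 and 8.29 in unexposed and 7.08 and 6.75 in ‘high light’ wild-type retinas, and 7.62 and 7.55, 7.58 and 7.88, and 7.54 and 7.56 in the CLN3-deficient groups, unexposed, NaCl and minocycline. The log2 fold change of *Npc2* was -0.94 ± 0.28 in wild-type retinas (limma, adjusted p = 0.0284), while the transcript read 7.54 to 7.88 in all 6 CLN3-deficient retinas. The wild-type call of *Npc2* was lost in a fit of only these groups and with the Y-linked term. It was also lost without unexposed replicate 2 and without either ‘high light’ array. *Gm2a*, the GM2 activator, read 11.28 and 11.80, then 11.09 and 10.61, in wild-type retinas, and 11.54 and 11.11, 11.85 and 11.58, and 11.35 and 11.34 in the CLN3-deficient groups. Its light effect was -0.69 ± 0.26 in wild-type and 0.39 ± 0.26 in CLN3-deficient retinas, neither called (limma, adjusted p = 0.0678 and 0.334). Its exposed arrays were both below the unexposed ones in wild-type and both above them in CLN3-deficient mice, which was so for 2.2% of all genes. The difference between genotypes was 1.08 ± 0.39 for *Npc2* and 1.08 ± 0.36 for *Gm2a* and was not called (limma, adjusted p = 0.342 and 0.313). *Asah1*, *Lipa* and *Psap*, the acid ceramidase, the acid lipase and the saposin precursor, were called in no comparison.

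Among the membrane proteins 2 of 5 rose in both genotypes and 0 fell. Of all genes 6.57% were higher in CLN3-deficient and 10.5% in wild-type retinas. *Lamp2*, a LAMP glycoprotein needed for autophagosome fusion and chaperone-mediated autophagy, had the smallest p of the members for light in CLN3-deficient retinas. It read 14.96 and 15.33 in unexposed and 16.18 and 15.75 in ‘high light’ wild-type retinas, and 14.91 and 14.83, 16.37 and 16.41, and 16.23 and 15.74 in unexposed, NaCl-injected and minocycline-treated CLN3-deficient retinas. The 6 light-exposed arrays were above the 4 unexposed ones. The rise was 1.52 ± 0.24 in CLN3-deficient (2.87-fold) and 0.82 ± 0.24 in wild-type retinas (1.77-fold; SE, limma, adjusted p = 0.0028 and 0.0281). The difference between the genotypes, 0.70 with a 95% interval of -0.04 to 1.44, was not called (limma, adjusted p = 0.479). The wild-type call was lost without unexposed replicate 1, without ‘high light’ replicate 1, in a fit of only these groups and with the Y-linked term. The CLN3-deficient call was lost with the Y-linked term too. Under that term, which rested on the minocycline arrays alone, the difference between the genotypes turned to -0.28.

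*Mcoln1* encodes TRPML1, the calcium-permeable channel of the lysosomal membrane, and rose in both genotypes. It read 13.17 and 12.97, then 14.05 and 14.39, in unexposed and exposed wild-type retinas, and 13.12 and 13.20, 14.13 and 14.41, and 14.42 and 13.88 in the unexposed, NaCl-injected and minocycline-treated CLN3-deficient retinas. Again no light-exposed array overlapped an unexposed one. The log2 fold change was 1.11 ± 0.24 in CLN3-deficient and 1.15 ± 0.24 in wild-type retinas (limma, adjusted p = 0.00955 and 0.00607), 2.16-fold and 2.22-fold. The CLN3-deficient call of *Mcoln1* was lost with the Y-linked term and was not kept in every fit that left out a compared array. Neither *Lamp1*, the sister glycoprotein of *Lamp2*, nor *Scarb2*, the receptor that carries glucocerebrosidase to the lysosome, was called: *Lamp1* ranged from 13.08 to 13.47 over the 10 arrays. The tetraspanin *Cd63* had a light effect of 0.65 ± 0.25 in CLN3-deficient retinas (limma, adjusted p = 0.0933).

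**Figure D3:**
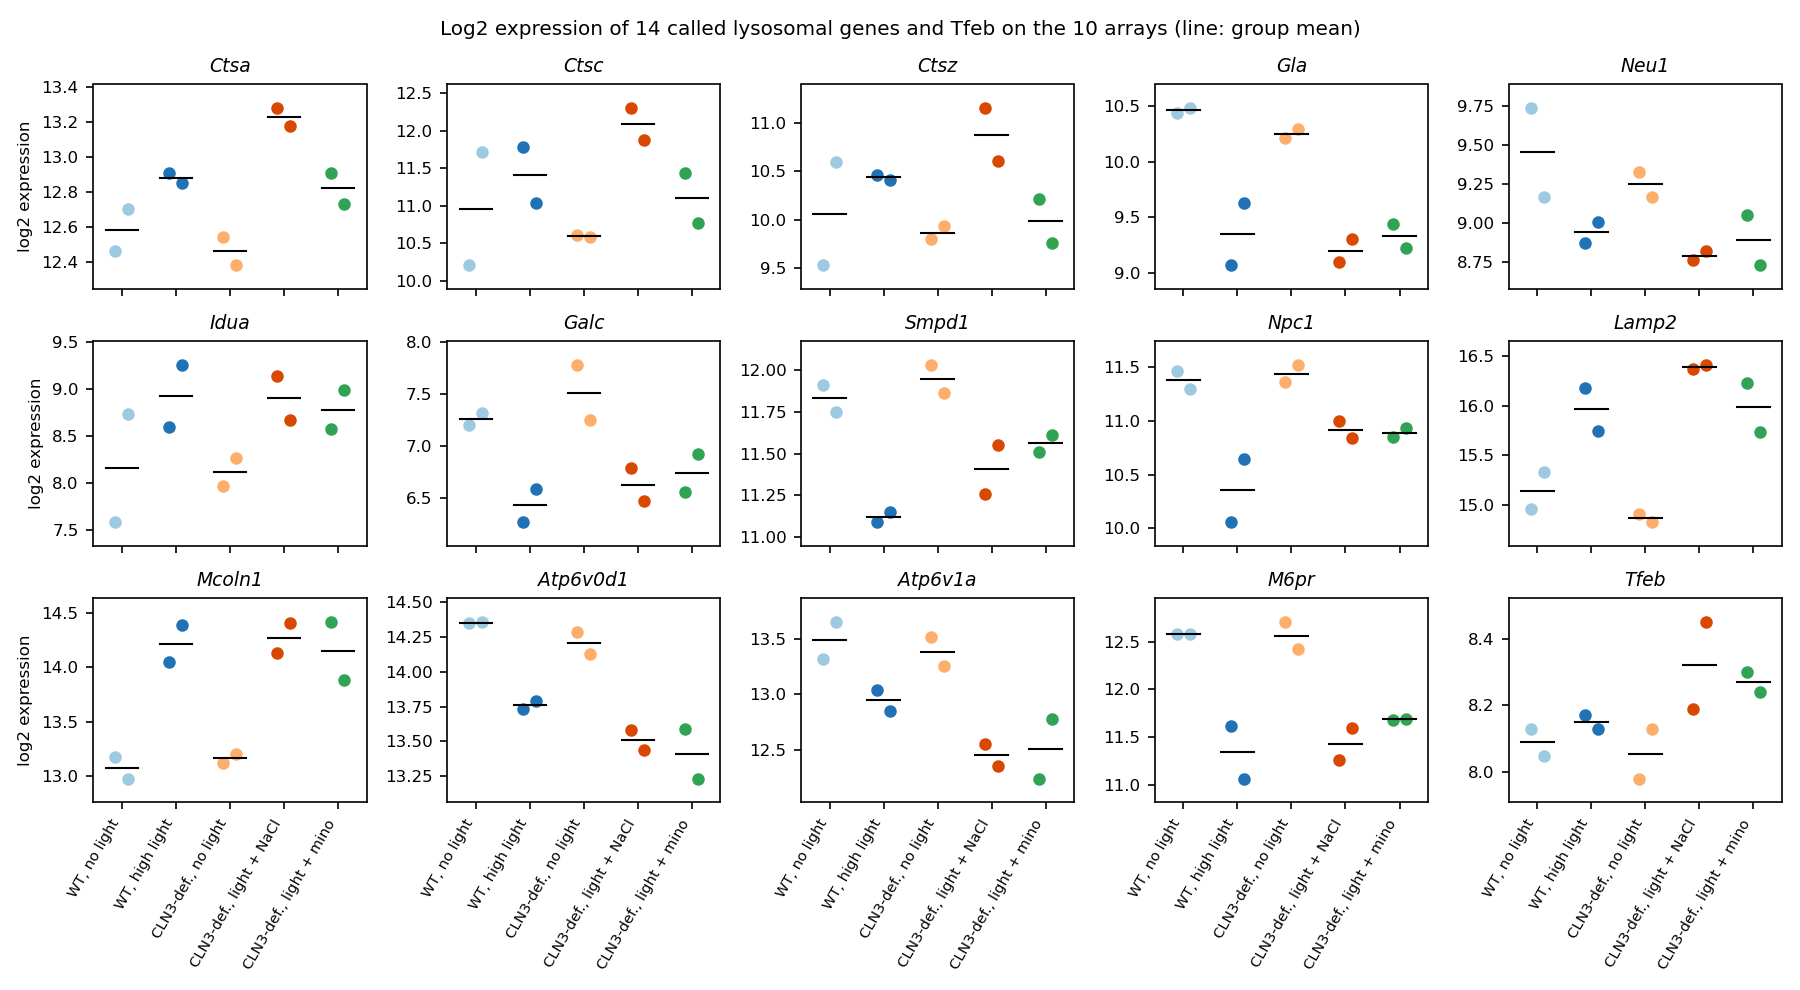
Log2 expression of 14 genes called for light in CLN3-deficient retinas or in the average over genotypes, and of *Tfeb*, on each of the 10 arrays. Points are arrays, 2 per group, lines are group means, and each panel has its own y axis. For *Lamp2* and *Mcoln1* the 6 light-exposed arrays lie above the 4 unexposed ones, for *Gla*, *Galc*, *Atp6v0d1* and *M6pr* they lie below, and *Tfeb* stays between 7.98 and 8.45.

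Of the 4 proton pump genes among the members, *Atp6v0d1* was lower after light in both genotypes and *Atp6v1a* in CLN3-deficient retinas. *Atp6v0d1* encodes a subunit of the membrane domain. It read 14.35 and 14.36 in unexposed and 13.73 and 13.79 in ‘high light’ wild-type retinas, and 14.29 and 14.13, 13.58 and 13.44, and 13.59 and 13.23 in the CLN3-deficient groups, unexposed, NaCl and minocycline. All 6 exposed arrays were below all 4 unexposed ones. The fall was -0.70 ± 0.20 in CLN3-deficient and -0.60 ± 0.20 in wild-type retinas (log2, limma, adjusted p = 0.0343 and 0.0489), and both calls were lost after quantile normalization, with the Y-linked term and without any 1 of the 4 arrays compared.

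*Atp6v1a*, the catalytic subunit that binds ATP, read 13.32 and 13.65, then 13.04 and 12.85, in unexposed and exposed wild-type retinas, and 13.51 and 13.25, 12.55 and 12.36, and 12.24 and 12.78 in the CLN3-deficient groups, in the same order. Its fall of -0.93 ± 0.24 in CLN3-deficient retinas was called (log2, limma, adjusted p = 0.0214), a call lost after quantile normalization, with the Y-linked term and without any 1 of the 4 arrays compared, and the wild-type effect of -0.54 ± 0.24 was not (adjusted p = 0.114). The average over genotypes, -0.73 ± 0.17, was called (limma, adjusted p = 0.0057). *Atp6v0d2* and *Atp6v1h* were called in no comparison.

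A list of 15 further V-ATPase and accessory subunits, 14 of them measured, was set beside these members. In CLN3-deficient retinas 7 of the 14 were lower and 1 was higher (median log2 fold change -0.65), and in wild-type retinas 10 were lower and 0 higher (median -0.85), where 11.0% and 15.6% of all genes were lower. The medians were -0.46 and -0.60 after quantile normalization and -0.60 and -0.76 with median centring. The subunit *Atp6v1g1* had the smallest p of the list in CLN3-deficient retinas and fell, with a log2 fold change of -1.64 ± 0.21 there and -1.60 ± 0.21 in wild-type retinas (limma, adjusted p = 0.00156 and 0.00117). The single rise was that of *Atp6v0e*, a small membrane-domain subunit, with a log2 fold change of 1.95 ± 0.32 in CLN3-deficient (limma, adjusted p = 0.00314) and 0.22 ± 0.32 in wild-type retinas (adjusted p = 0.640). The accessory protein *Atp6ap2*, also known as the prorenin receptor, fell by 1.08 ± 0.20 on the log2 scale in CLN3-deficient retinas and fell by 1.00 ± 0.20 in wild-type ones (limma, adjusted p = 0.00533 and 0.00549).

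Markers of rods and ganglion cells also included falls, where 11.0% and 15.6% of all genes were lower in CLN3-deficient and wild-type retinas. Of 10 rod markers measured, 4 were lower after light in CLN3-deficient and 6 in wild-type retinas. Their median log2 fold changes were -0.71 and -0.82 (-0.40 and -0.41 after quantile normalization). Of 8 ganglion cell markers measured, 3 were lower in CLN3-deficient retinas (median -0.36) and 5 in wild-type ones (median -0.86; -0.17 and -0.55 after quantile normalization). The part of these cells in the values of the pump genes was not tested.

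**Figure D4:**
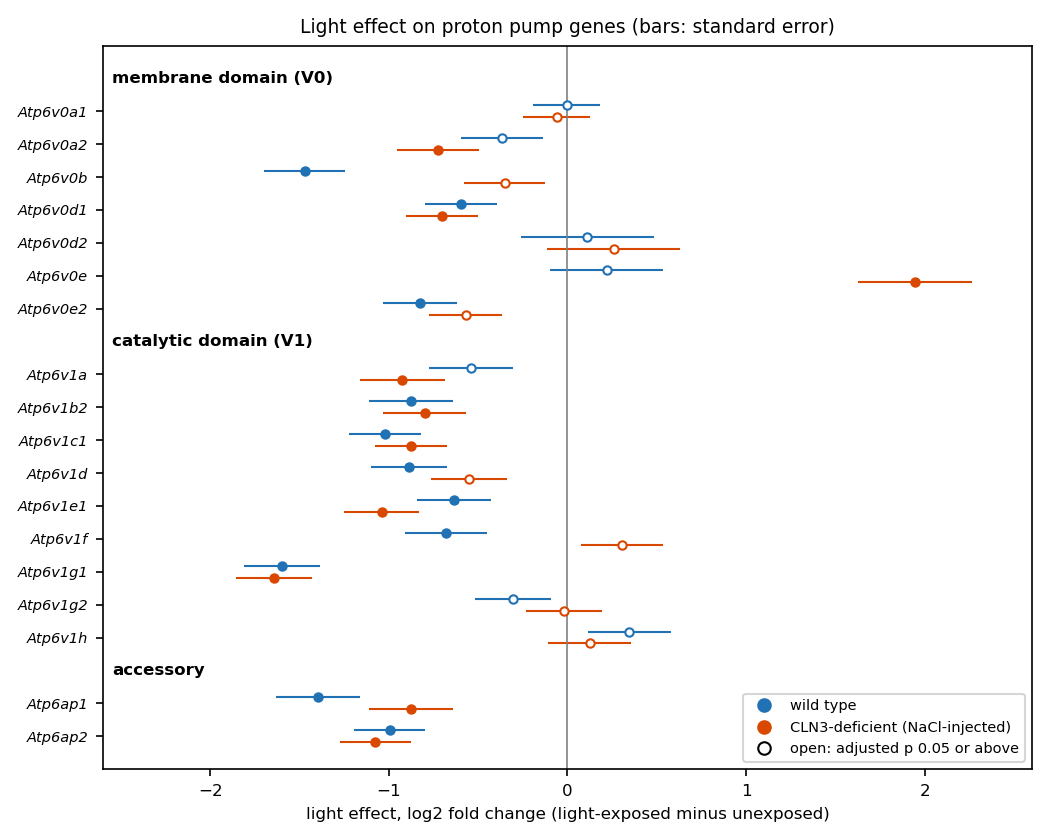
Light effect on 18 proton pump genes, grouped into membrane domain, catalytic domain and accessory proteins. The x axis is the log2 fold change of light-exposed minus unexposed retinas (2 arrays per group) in wild-type (blue) and NaCl-injected CLN3-deficient mice (orange), bars show the standard error from limma, and filled points had an adjusted p under 0.05. Most filled points lie left of 0, and *Atp6v0e* in CLN3-deficient retinas is the exception at 1.95.

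Of the 4 genes for enzyme sorting and regulation, *M6pr*, the cation-dependent mannose 6-phosphate receptor, was lower after light in both genotypes. It read 12.58 on both unexposed wild-type arrays and 11.62 and 11.06 after ‘high light’, and 12.71 and 12.42, 11.26 and 11.60, and 11.68 and 11.69 in the unexposed, NaCl-injected and minocycline-treated CLN3-deficient retinas. All exposed arrays were below all unexposed ones. The log2 fold change of *M6pr* was -1.24 ± 0.24 in wild-type and -1.14 ± 0.24 in CLN3-deficient retinas (limma, adjusted p = 0.00436 and 0.00841), 2.36-fold and 2.20-fold lower. Both calls were lost with the Y-linked term, and the CLN3-deficient one was not kept in every fit that left out a compared array. The other receptor, *Igf2r*, and *Gnptab*, a subunit of the enzyme that builds the mannose 6-phosphate tag, were called in no comparison.

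*Tfeb* itself read 8.13 and 8.05, then 8.17 and 8.13, in wild-type retinas, and 7.98 and 8.13, 8.19 and 8.45, and 8.30 and 8.24 in the CLN3-deficient groups. Its light effect was 0.27 ± 0.19 in CLN3-deficient (95% interval -0.16 to 0.69) and 0.06 ± 0.19 in wild-type retinas (limma, adjusted p = 0.387 and 0.845). The arrays measure its transcript and not where the protein lies in the cell.

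Other lysosomal genes, from lists of related genes, were called in both directions too, and their counts stand beside 6.57% higher and 11.0% lower of all genes in the mutant and 10.5% and 15.6% in the wild type. Of 11 measured genes of the neuronal ceroid lipofuscinoses, 2 were higher in CLN3-deficient retinas and 4 were lower, against 0 and 5 in wild-type ones. The log2 fold changes of this list ran from -1.31 to 2.08 in CLN3-deficient retinas. The largest was the rise of the lysosomal progranulin *Grn*, 2.08 ± 0.38 (limma, adjusted p = 0.00483). In wild-type retinas the means of *Grn* were 11.69 unexposed and 12.43 after ‘high light’, a rise that was not called. Of 13 further hydrolases, cofactors and inhibitors, 1 was higher in CLN3-deficient retinas and 2 were lower, against 0 and 3 in wild-type ones. Among 12 further membrane proteins 1 was higher and 0 lower in each genotype; *Laptm5*, a lysosomal protein of blood-derived cells, had the rise in CLN3-deficient retinas (3.24, limma, adjusted p = 0.00779). Of 22 regulators of lysosomes and autophagy 2 were higher in CLN3-deficient retinas and 6 were lower, against 0 and 8 in wild-type ones, with median log2 fold changes of -0.56 and -0.45 (-0.36 and -0.20 after quantile normalization).

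After minocycline, 0 of the 42 members were called higher and 0 lower than in NaCl-injected CLN3-deficient retinas (limma), as were 0.0% and 0.0154% of all genes, and 4 members were lower at an unadjusted p under 0.05, beside 3.76% of all genes. All 4 were cathepsins. The 7 cathepsins among the members all had negative differences, with a median of -0.89 on the log2 scale, beside 0.01 for all genes and -0.12 for the 42 members. The values of 6 of the 7 did not overlap between the groups, which held in this direction for 17.4% of all genes. Of the cathepsins in other lists, *Ctso* had a lower mean with minocycline than with NaCl (9.405 against 9.76). *Ctsf* (11.335 against 11.255) and *Ctsk* (7.295 against 6.925) had a higher one. The difference was -1.75 ± 0.61 for *Ctss* (95% interval -3.09 to -0.40, limma, adjusted p = 0.624), -0.89 ± 0.32 for *Ctsz* (adjusted p = 0.649) and -0.99 ± 0.43 for *Ctsc* (adjusted p = 0.749). In each, minocycline replicate 2 read below replicate 1, as in *Ctss* with 8.40 against 9.77, and this was also the array with the high pigment epithelium markers and without Y-linked transcripts. Without it the differences were -1.06 for *Ctss*, -0.67 for *Ctsz* and -0.66 for *Ctsc*. The microglia markers had a median difference of -1.14 in the same comparison, with 0 of 12 called and 5 at an unadjusted p under 0.05, all lower. Of 9 measured markers of Müller glia, the supporting glia of the retina, 8 had negative differences too (median -0.48, 0 called), and their mean stood -0.53 and 0.90 from its 10-array mean on the unexposed wild-type arrays. The part of these cells in the differences was not tested.

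Minocycline-treated retinas were also set against the same unexposed CLN3-deficient retinas that served the NaCl comparison, so both share these controls. Here 2 members were higher and 4 lower (limma), 4.76% and 9.52%, against 3.77% and 6.74% of all genes. The 2 rises were *Lamp2* with 1.12 ± 0.24 and *Mcoln1* with 0.99 ± 0.24 (limma, adjusted p = 0.0166 and 0.0240), beside 1.52 and 1.11 with NaCl. The falls were *Gla* with -0.92 ± 0.23, *Atp6v0d1* with -0.80 ± 0.20, *M6pr* with -0.88 ± 0.24 and *Atp6v1a* with -0.87 ± 0.24 (limma, adjusted p = 0.0263, 0.0292, 0.0372 and 0.0400). The NaCl values of these 4 were -1.05, -0.70, -1.14 and -0.93. For *Ctsc* the effect was 0.51 ± 0.43 with minocycline (adjusted p = 0.503) and 1.49 ± 0.43 with NaCl. Leaving out either unexposed array left 0 members higher and 0 lower, and leaving out either NaCl-injected array left 2 and 2. Without minocycline replicate 1 it was 0 and 1, and without replicate 2 it was 2 and 1. With the Y-linked term in the fit the counts were 0 and 1, and after quantile normalization 2 and 0.

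Between the genotypes 0 members were called, either without or with light (limma), as against 0.0308% higher and 0.0154% lower of all genes without light and 0.687% and 0.113% with light. Without light 2 members were lower in CLN3-deficient retinas at an unadjusted p under 0.05, as were 2.26% of all genes. *Cd63* read 11.27 and 11.19 in the mutant, against 11.63 and 12.36 in wild-type mice (-0.77 ± 0.25, limma, adjusted p = 0.904). *Sgsh* read 7.77 and 7.84 against 8.12 and 9.70 (-1.11 ± 0.41, adjusted p = 0.997). For *Ctsl* the values were 11.30 and 11.17 against 11.28 and 12.08, overlapping (-0.45 ± 0.28, adjusted p = 0.997). Without unexposed wild-type replicate 2 these differences were -0.40 for *Cd63*, -0.32 for *Sgsh* and -0.045 for *Ctsl*.

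After light 3 members had an unadjusted p under 0.05, all higher in CLN3-deficient retinas, as had 7.65% of all genes, a share like that of the members. *Gm2a* differed by 0.87 ± 0.26 (11.85 and 11.58 in NaCl-injected CLN3-deficient against 11.09 and 10.61 in wild-type retinas), *Npc2* by 0.82 ± 0.28 (7.58 and 7.88 against 7.08 and 6.75) and *Npc1* by 0.57 ± 0.23 (11.00 and 10.84 against 10.06 and 10.65). None passed the adjustment (limma, adjusted p = 0.139, 0.186 and 0.265). The groups did not overlap in any of the 3, nor in 20.7% of all genes in this direction. Without ‘high light’ replicate 1 the difference of *Npc1* was 0.27. The light dose by the protocol and the injection differ between these groups, as do the Y-linked transcripts.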

How the data were processed

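Total retinal RNA was labelled with biotin and hybridized to Affymetrix arrays, Clariom S by the series design and another mouse array by the methods. The authors processed the scans with Affymetrix Expression Console and deposited log2 values per transcript cluster, with version, algorithm, settings and build not given in the sources used here. Among the deposited rows were 22206 clusters, of which 19572 carried 1 symbol in the platform annotation, 0 several and 2634 none. For 55 genes with several clusters the one with the highest mean was used, which left 19505 genes. No filter or further normalization was applied, and array medians of 7.13 to 7.25 on the deposited log2 scale show a common scaling. Pearson's r over clusters between the arrays of 1 group was 0.989 to 0.994.

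Differences were tested with limma 3.58.1 in R 4.3.3 (lmFit and eBayes without trend). All 10 arrays entered 1 fit with a mean per group and a common spread; p-values were adjusted by Benjamini-Hochberg over all 19505 genes at 0.05. The number of arrays, 2 per group, limits the precision, with a median standard error of a light effect of 0.24. The labels call the 2 samples of a group biological duplicates. The light effect averaged over both genotypes was added after the data were seen.

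Members and gene lists were chosen with earlier results of these data known. Values on every array are given, in each comparison, for up to 6 called members with the smallest p, or for 3 where none was called, and for *Tfeb*; *Ctsc*, *Ctsh*, *Neu1*, *Idua*, *Hexa*, *Gusb*, *Naglu*, *Man2b1* and *Lamp1* were also chosen after their values were seen. Up to 3 genes of each list of other lysosomal genes, those with the smallest p for light in CLN3-deficient retinas, could be named. *Ctsf*, *Ctsk* and *Ctso* were named beside the cathepsins after their values were seen. The lists hold microglia, rods, Müller glia, pigment epithelium, ganglion cells, endothelium, lens, skeletal muscle, red blood cells and Y-linked transcripts besides the lysosomal lists. Promoter windows came from RefSeq (GRCm38.p6), and 35 of the 42 members matched.

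Alternatives were quantile normalization, median centring, omission of the dimmest 30% of genes, a robust eBayes with trend, the methods' t-test, a fit restricted to the compared groups, the methods' threshold (2 or more on the log2 scale, in either direction), a 2-fold threshold, every transcript cluster, a covariate for Y-linked transcripts and leaving out each array. The fit was tested on simulated data.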

Additional observations from a re-analysis of the deposited data

Results flagged for a closer look

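*Gm2a*, the GM2 activator, had fitted light effects of opposite sign in the 2 genotypes, neither of them called. Both light-exposed CLN3-deficient arrays (NaCl) were above both unexposed ones, and both ‘high light’ wild-type arrays were below both unexposed ones. The difference between the light effects was 1.08 ± 0.36 (log2, SE), and it did not pass the adjustment over all genes (limma, adjusted p = 0.313). This pattern of arrays was found for 2.2% of all genes. Light dose, injection and the presence of Y-linked transcripts differ between the genotypes as well and cannot be told apart from it.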

How the results depend on the processing

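Counts are given as members higher and lower. For light in CLN3-deficient retinas (4 and 5) quantile normalization gave 6 and 3, a fit of only the groups compared 9 and 6, a 2-fold threshold 3 and 2 and the Y-linked covariate 0 and 0, and single left-out arrays 1 to 6 and 0 to 5. For light in wild-type retinas (2 and 7) only the groups compared gave 1 and 4, a 2-fold threshold 1 and 3, the Y-linked covariate 1 and 0, and left-out arrays 1 to 5 and 2 to 7. For light with minocycline (2 and 4) quantile normalization gave 2 and 0, median centring 2 and 2, a 2-fold threshold 1 and 0, the Y-linked covariate 0 and 1, and left-out arrays 0 to 2 and 0 to 5. For the averaged light effect (6 and 8) the methods' t-test gave 3 and 7, a 2-fold threshold 2 and 2, and left-out arrays 3 to 9 and 7 to 14. The methods' t-test with adjustment called 0 and 0 in the other light comparisons, and the methods' threshold 0 and 0 in all 4, with either test. Minocycline against NaCl and the genotype comparisons stayed at 0 under every alternative. Of 798 refitted fold changes of named members, 645 kept their direction and side of the threshold, 152 lost the call, and 1 reversed, the genotype difference of *Lamp2* in the light effect, which was 0.70 and became -0.28 with the Y-linked covariate. The 798 include refits whose fold change could not move, such as those without an array outside the groups compared. They also include members with no call in the main fit. Those count among the 645 as long as the direction held and no call appeared. The Y-linked covariate rested on the minocycline arrays alone, because only in that group did the arrays differ in these transcripts. Smaller samples are part of each fit with an array left out. The cause of the other shifts was not tested. No paired analysis was possible because the replicate numbers only name the arrays. With 2 arrays per group and a median standard error of 0.24, small differences between the groups could not be resolved.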
